A study of Mus musculus with 9 samples.

Results

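Livers of mice that lack NEMO in hepatocytes were compared with wild type livers across the probe sets of an Affymetrix gene array. The comparison uses the 3 arrays titled as the hepatocyte NEMO knockout (NEMOΔhepa) and the 3 titled as wild type, 6 of the 9 arrays of the series, and the members were chosen by these titles alone. Of the 35556 probe sets in the table, 23410 carry at least 1 gene symbol, and 21789 of these carry exactly 1 and name 19939 genes. All animals were C57/BL6 males of 8 to 9 weeks on standard chow, and each array holds total RNA of whole liver. The promoter that drove the deletion in hepatocytes is not given in the sources used here. The other 3 arrays, labelled as a cross of the knockout with mice constitutively lacking p21, share the estimate of the spread and are not compared. Whole liver also holds endothelial, stellate, biliary and immune cells, in which the labels describe no deletion. The labels do not say that the samples were separate animals beyond giving them different identifiers, so p-values measure the spread between these samples.

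NEMO is the product of Ikbkg. It is the regulatory member of the IκB kinase complex, which frees NF-κB transcription factors from their inhibitors after signals such as tumour necrosis factor (TNF) or bacterial lipopolysaccharide. In hepatocytes NF-κB target genes protect the cell from death signalled by TNF receptors. Mice without NEMO in hepatocytes are known to develop hepatocyte death, inflammation, compensatory proliferation, fibrosis and, with age, liver tumours.

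The values are log2 RMA values, the background-corrected, quantile-normalised and probe-summarised signal of each probe set, and differences are the knockout mean minus the wild type mean on that scale, with standard errors (SE) from limma. A probe set was called where limma's Benjamini-Hochberg adjusted p over the 28939 probe sets tested was under 0.05. Of those tested, 5529 (19.1%) carry no gene symbol. In all, 2222 probe sets were called (7.68%), 1638 higher in the knockout (5.66%) and 584 lower (2.02%). With 1 probe set per gene, as in the gene lists, 9.28% of the 19939 genes were called, 6.78% higher and 2.5% lower. A list whose share lies near these is not set apart from all genes. Lists and their members were chosen with earlier results of these data known, so a share above these is a description and not a test. The share of probe set calls that were higher was 73.7% with the values as deposited and 52.7% after median centring of the arrays. The array medians of the knockout all lay above those of wild type, and median centring sets them equal. The median difference over all probe sets was however already -0.04 with the values as deposited. Which share of calls upward is closer to the RNA content of the livers was not tested. The medians ran from 6.47 to 6.48 in wild type and from 6.52 to 6.58 in the knockout, highest in knockout replicate 1. That array also stood apart from its group on the second principal component of the 6 arrays (26.1 against -10.4 and -10.6), which held 15.8% of the variance, and had the lowest array weight of the 9, 0.412. Without knockout replicate 3 the number of calls was 1382 (1081 higher and 301 lower), and without wild type replicates 1 and 2 in turn the calls lower were 388 and 382. Expression in the groups did not overlap at 6722 probe sets (23.2%), 3301 higher and 3421 lower, so the excess of calls upward did not appear in the count of groups set apart. Genes called higher changed more: of 1352 such genes 320 rose at least 2-fold, with a median difference of 0.66, and of 498 genes called lower 31 fell at least 2-fold, with a median of -0.44. The genes called higher had a median wild type level of 6.97 and those called lower one of 9.09.

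**Figure D1:**
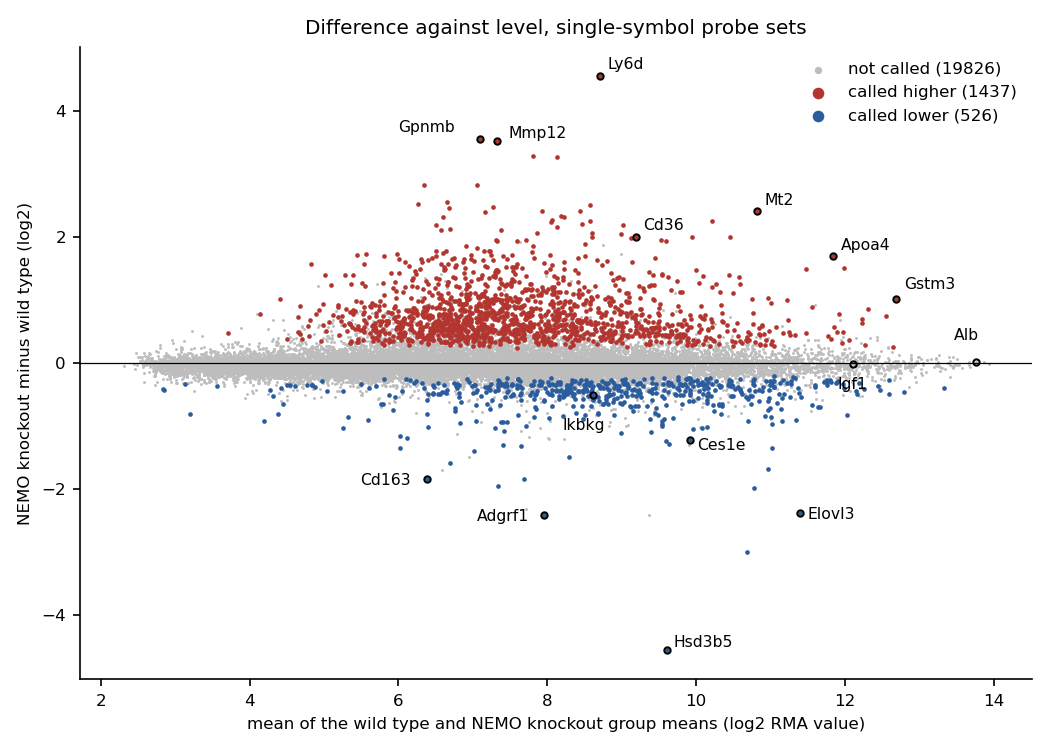
Each point is a probe set with 1 gene symbol, placed by the mean of the wild type and NEMO knockout group means (horizontal axis, log2 RMA value) and by their difference (vertical axis, log2), with called probe sets coloured by direction. Increases reach 4.55 in Ly6d and decreases -4.57 in Hsd3b5, while the albumin gene Alb, at 0.01, lies on the zero line at the bright end.

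The targeted gene itself was lower in all 3 knockout arrays. Ikbkg read 8.73, 8.89 and 8.98 in wild type replicates 1 to 3 and 8.23, 8.48 and 8.35 in the knockout. The groups did not overlap, and the highest knockout array lay 0.25 below the lowest wild type array. The difference of -0.52 ± 0.11 (SE, n = 3 per group; limma adjusted p = 0.0184) is a residual signal of 69.8% of the wild type level on the linear scale. The call was lost without wild type replicate 2 or 3 (adjusted p = 0.0625 and 0.0729) and without knockout replicate 1 or 3 (0.0524 and 0.0647). The position of the probes with respect to the deleted exons was not analysed here, so the size of the residual signal does not measure the deletion. Among the 10 measured genes on either side of Ikbkg along the chromosome, differences ran from -0.39 to 0.86 and none was called lower. The 3 neighbours called were higher: the palmitoylated membrane protein gene Mpp1 (0.86 ± 0.13), Fundc2 (0.53 ± 0.12) and the plexin gene Plxna3 (0.44 ± 0.09), named after their values were seen.

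Of 28 measured genes for IκB kinase subunits, NF-κB subunits, their inhibitors and upstream adaptors, 2 were called higher and 1, Ikbkg, lower. This is 10.7%, against 9.28% over all genes and 7.68% over all probe sets. The median difference was 0.00, against -0.03 over all genes. The catalytic kinase gene Ikbkb read 8.45, 8.48 and 8.42 in wild type and 8.44, 8.44 and 8.50 in the knockout, and the NF-κB subunit gene Rela differed by 0.07 ± 0.07 (adjusted p = 0.616). Map3k14, the kinase NIK of the NEMO-independent non-canonical pathway, rose by 0.75 ± 0.08 (adjusted p = 0.000752). It read 6.01, 6.05 and 6.07 in wild type and 6.64, 6.87 and 6.88 in the knockout, with no overlap. Tnip1, which encodes a partner of the inhibitor A20, rose by 0.35 ± 0.08, a call lost without wild type replicate 2 or 3 or knockout replicate 2 or 3 (adjusted p = 0.0755, 0.082, 0.0696 and 0.0952), with the 6 arrays alone (0.0703), with arrays centred on their medians (0.0641) and with quantile normalisation repeated (0.0629).

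**Figure D2:**
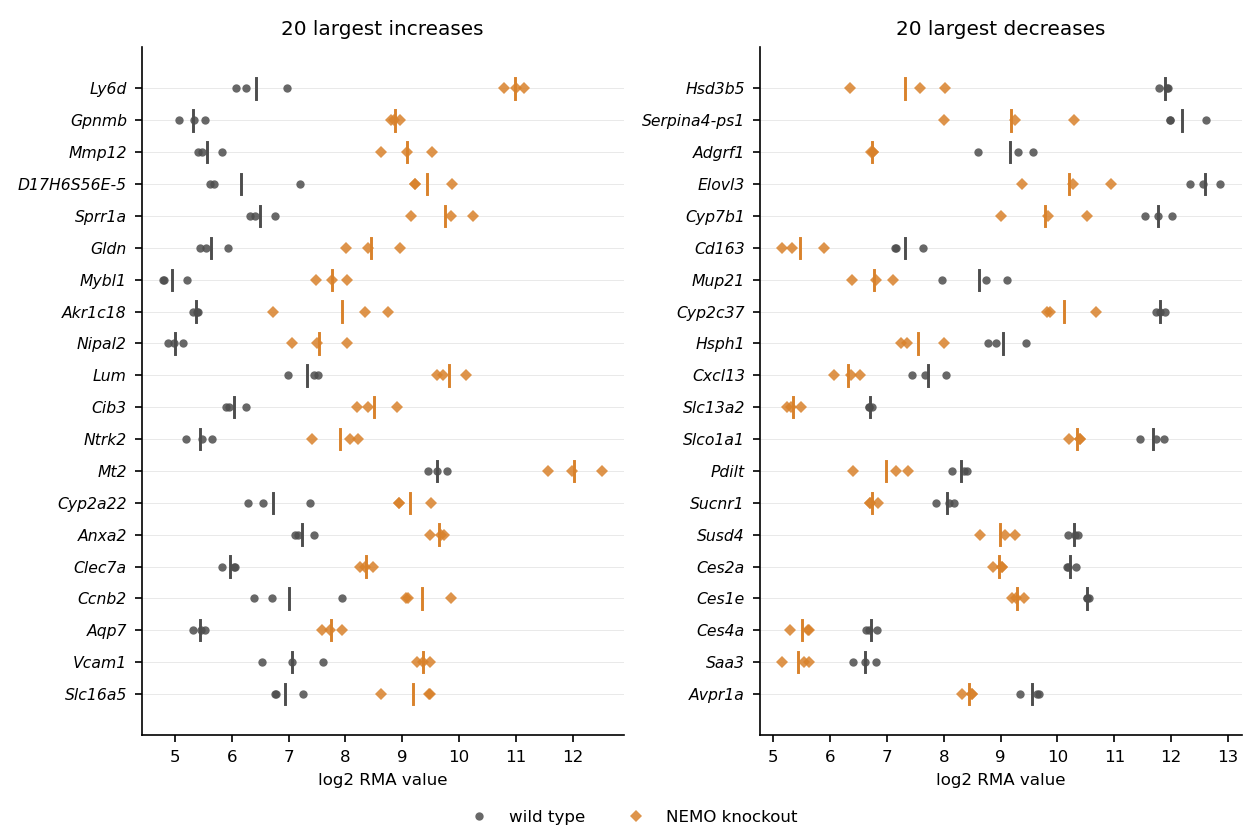
Dots are the log2 RMA values of the 20 genes with the largest increases (left) and the 20 with the largest decreases (right) among called, named genes whose groups do not overlap, for 3 wild type and 3 NEMO knockout arrays, with a bar at each group mean. The 3 knockout values of Ly6d, from 10.79 to 11.15, stand above the wild type values of 6.07 to 6.98, and those of Hsd3b5, from 6.35 to 8.03, below the wild type values of 11.79 to 11.94.

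The 20 genes with the largest increases hold secreted and surface proteins of macrophages, matrix genes, and enzymes and transporters. Ly6d, a small glycosylphosphatidylinositol-anchored surface protein, read 6.24, 6.98 and 6.07 in wild type and 10.79, 11.15 and 11 in the knockout, a rise of 4.55 ± 0.64 (23.5-fold). The 3 knockout values spanned 0.36, less than the 0.91 spanned by wild type. Gpnmb, a glycoprotein of lipid-laden macrophages, read 5.08, 5.53 and 5.33 and then 8.80, 8.96 and 8.85, which gave the smallest adjusted p of the 20, 2.93e-05. Mt2, a metallothionein that binds zinc and copper, read 9.45, 9.78 and 9.61 in wild type against 11.98, 12.52 and 11.56, a rise of 2.41 ± 0.20.

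Several further genes of the 20 are known from other tissues. Ntrk2, the receptor for brain-derived neurotrophic factor, read 5.48, 5.66 and 5.20 in wild type and 7.42, 8.22 and 8.08 in the knockout (2.46 ± 0.25, adjusted p = 0.000561). Aqp7, a channel for water and glycerol best known in fat cells, read 5.32, 5.53 and 5.46 against 7.73, 7.59 and 7.94 (2.31 ± 0.15). Cib3, of the calcium and integrin binding protein family, rose by 2.47 ± 0.19 and Slc16a5, a monocarboxylate transporter, by 2.26 ± 0.25. In all 4 genes the lowest knockout array lay more than 1 log2 unit above the highest wild type array. Cyp2a22, a female-biased cytochrome P450, rose by 2.40 ± 0.34, from 7.37, 6.29 and 6.54 to 9.50, 8.95 and 8.95. Vcam1, an adhesion molecule that holds leukocytes to endothelium, read 6.54, 7.61 and 7.06 in wild type and 9.27, 9.48 and 9.37 in the knockout (2.30 ± 0.23, adjusted p = 0.000577). Anxa2, an annexin that links membranes to actin, rose by 2.40 ± 0.16 and Clec7a, the β-glucan receptor Dectin-1 of myeloid cells, by 2.39 ± 0.13.

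Among the 20 largest decreases are liver transporters, carboxylesterases and steroid enzymes. Hsd3b5, a male-specific 3β-hydroxysteroid dehydrogenase, read 11.92, 11.79 and 11.94 in wild type and 6.35, 8.03 and 7.58 in the knockout, so it fell by 4.57 on the log2 scale (SE 0.51). The wild type arrays lay within 0.15 of each other and the knockout arrays spanned 1.68. Adgrf1, an adhesion G protein-coupled receptor, fell from 9.58, 8.59 and 9.30 to 6.75, 6.72 and 6.75. Slc13a2, a sodium-coupled citrate transporter, read 6.69, 6.69 and 6.73 and then 5.48, 5.32 and 5.25 (-1.36 ± 0.10, adjusted p = 0.000178). Of the carboxylesterases, which hydrolyse lipid esters and ester drugs, Ces2a fell by 1.25, Ces1e by 1.23 and Ces4a by 1.20 on the log2 scale. Ces1e read 10.51, 10.55 and 10.52 in wild type against 9.41, 9.27 and 9.20, so the groups were separated by 1.10 where each spanned at most 0.21. Sucnr1, the succinate receptor, fell by 1.30 (SE 0.15), Susd4, a complement inhibitor, by 1.29 (0.17), and Avpr1a, the vasopressin receptor of hepatocytes, by 1.11 (0.17). Cxcl13, a chemokine that draws B cells, fell by 1.4 (0.26) and Saa3, a serum amyloid A of macrophages and fat, by 1.17 (0.15). The heat shock protein gene Hsph1 had the weakest call of the 40 (-1.50 ± 0.38, adjusted p = 0.0431), and it was lost without any of the 6 arrays and without replicate 3 of the third group (adjusted p from 0.0506 to 0.145), with array weights (0.07), with the replicate block (0.081) and with all probe sets of the table tested (0.0769).

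Most genes of mitosis were higher in the knockout. Of 47 measured genes for mitotic entry, the spindle and cytokinesis, 36 were called higher (76.6%) and none lower. Over all genes 6.78% were called higher. The median difference of the list was 0.97. Ccnb2, cyclin B2, read 7.95, 6.39 and 6.71 in wild type and 9.08, 9.87 and 9.09 in the knockout (2.33 ± 0.36, adjusted p = 0.00419). Mki67, the proliferation antigen Ki-67, read 7.26, 6.03 and 5.81 against 8.04, 8.62 and 8.2, and Cdk1, the mitotic kinase, 7.38, 6.73 and 6.29 against 8.15, 8.41 and 8.37. In each of these genes wild type replicate 1 was the highest of its group and still below every knockout array. The same held for the mean of all 47 genes relative to wild type, which was 0.43 in wild type replicate 1, -0.19 and -0.24 in replicates 2 and 3, and 0.88, 1.31 and 0.97 in the knockout. The count of 36 was 20 without wild type replicate 2 or 3 and 22 without knockout replicate 2. Mybl1, a MYB transcription factor, had the largest increase of the list: it read 5.21, 4.80 and 4.82 in wild type and 7.48, 7.76 and 8.03 in the knockout (2.82 ± 0.33, adjusted p = 0.00109).

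Promoters of mitotic genes are known to hold CCAAT boxes, bound by NF-Y, and a cell cycle homology region (CHR), bound by the MuvB complexes that repress these genes in resting cells and activate them before mitosis. RefSeq promoters (build GRCm38.p6) were searched in the 250 bases before the start site, on either strand. The search left out the promoters of a whole chromosome. CCAAT was present in 31 of 41 promoters (75.6%) of the 38 mitotic genes with an entry among those searched, against 33.8% of all 32851 promoters searched. The CHR letters TTTGAA were present in 43.9% against 16%, and both motifs together in 36.6% against 5.55%. Promoters of all genes called higher held both in 4.81%. The 100 bases before the start site are shown for Ccnb2, the member with the second largest increase, and for 6 called members with both motifs in that stretch, chosen after the matches were seen, so that the placing of the motifs can be compared. Capitals mark both motifs, spelled as above or, where they lie on the other strand, as the reverse complement, and each sequence runs 5′ to 3′ toward the start site. The stretches are chr9:70421555-70421654 for Ccnb2, chr10:69352913-69353012 for Cdk1, chr2:129297213-129297312 for Ckap2l, chr4:118437344-118437443 for Cdc20 and chr11:99024190-99024289 for Top2a, all on the minus strand, and chr19:37376282-37376381 for Kif11 and chr2:164769829-164769928 for Ube2c, both on the plus strand.
Ccnb2: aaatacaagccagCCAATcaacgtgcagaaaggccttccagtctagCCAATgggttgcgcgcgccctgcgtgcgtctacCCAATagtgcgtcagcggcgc
Cdk1: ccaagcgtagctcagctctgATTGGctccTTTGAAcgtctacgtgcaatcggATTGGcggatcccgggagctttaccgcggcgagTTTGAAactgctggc
Kif11: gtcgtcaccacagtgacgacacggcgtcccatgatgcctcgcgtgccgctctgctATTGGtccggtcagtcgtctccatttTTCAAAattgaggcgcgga
Ckap2l: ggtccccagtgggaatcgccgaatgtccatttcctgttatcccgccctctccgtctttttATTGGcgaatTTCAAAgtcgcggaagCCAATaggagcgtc
Cdc20: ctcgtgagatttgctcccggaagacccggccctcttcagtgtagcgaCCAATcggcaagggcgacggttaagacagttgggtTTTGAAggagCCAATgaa
Ube2c: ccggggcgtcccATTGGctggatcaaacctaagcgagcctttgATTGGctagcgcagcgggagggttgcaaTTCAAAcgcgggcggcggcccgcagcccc
Top2a: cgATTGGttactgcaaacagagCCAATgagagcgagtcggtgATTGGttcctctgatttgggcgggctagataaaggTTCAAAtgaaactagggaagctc

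These 7 genes were all called higher, Kif11, a spindle motor, by 1.33 ± 0.22, Ckap2l, a spindle pole protein, by 1.11 ± 0.23, Cdc20, an activator of the anaphase-promoting complex, by 1.01 ± 0.19, Ube2c, its ubiquitin-conjugating enzyme, by 1.0 ± 0.21, and Top2a, the topoisomerase that untangles chromosomes, by 0.97 ± 0.20. A motif match describes the letters and does not show that a factor binds there.

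Of 39 measured genes of DNA replication and nucleotide supply, 5 were called higher (Rrm2, Mcm6, Mcm2, Mcm4 and Gins2) and 1 lower (Mcm10), with a median of 0.23. These shares are 12.8% and 2.56%, against 6.78% and 2.5% over all genes. The mean of the list was 0.15 in wild type replicate 1 and 0.17 in knockout replicate 1. The count of 5 was 0 without wild type replicate 2 or 3 or knockout replicate 2 or 3, 2 without knockout replicate 1, 8 without wild type replicate 1 and 3 without replicate 2 or 3 of the third group. It was 8 with array weights, 3 with quantile normalisation repeated, 2 with median centring or the replicate block and 1 with all probe sets of the table tested. Mcm10 was not called without wild type replicate 1 or 3 or knockout replicate 3 (adjusted p = 0.0725, 0.0692 and 0.0826) or with the 6 arrays alone (0.057). The sliding clamp gene Pcna read 9.57, 9.55 and 9.48 in wild type and 9.80, 9.86 and 9.96 in the knockout, without overlap and without a call (0.34 ± 0.10, adjusted p = 0.0707). Promoters of these genes held the E2F-like letters TTTNNCGC in 27.5%, against 4.28% of all promoters and 12.2% of those of the mitotic genes.

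Among 28 regulators of the G1 phase, 4 were called higher and 1, the E2F repressor gene E2f4, lower. These shares are 14.3% and 3.57%, against 6.78% and 2.5% over all genes. Ccnd1, cyclin D1, read 9.99, 9.00 and 9.39 in wild type and 11.54, 11.53 and 11.31 in the knockout (2.0 ± 0.22, adjusted p = 0.000881). The knockout arrays lay within 0.23 of each other and at least 1.32 above the wild type arrays. Cdkn2c, the inhibitor p18 of the cyclin D kinases, rose by 1.01 ± 0.13, and the pocket protein gene Rbl1 and the kinase gene Cdk6 were the other calls. The count of 4 was 2 without wild type replicate 2 or 3 or knockout replicate 2 or 3, and that of 1 was 0 without wild type replicate 2 or knockout replicate 1 or 3 and with the 6 arrays alone. It was 2 without knockout replicate 2, with the replicate block and with quantile normalisation repeated. Ccne1, cyclin E1, differed by 0.55 ± 0.15 (adjusted p = 0.0659).

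Genes of TNF receptor signalling and cell death rose in part. Of 33 measured TNF family ligands and receptors 7 were called higher (21.2%, against 6.78% over all genes) and none lower. Eda2r, a p53-induced receptor for ectodysplasin, led them. It read 5.07, 4.89 and 4.91 in wild type and 6.57, 6.75 and 6.64 in the knockout (1.69 ± 0.10, adjusted p = 0.000112). Tnfrsf10b, the TRAIL receptor, rose by 1.09 ± 0.15. Tnf itself read 5.75, 5.54 and 5.36 against 5.82, 5.88 and 5.95, which do not overlap, and was not called (0.34 ± 0.09, adjusted p = 0.0661). The count of 7 was 4 without wild type replicate 1 or 2 or knockout replicate 3, 3 without wild type replicate 3, and 4 with the 6 arrays alone or with median centring. Of 33 effectors of apoptosis and necroptosis 9 were called higher (27.3%, against 6.78% over all genes) and none lower (1 lower with median centring). Mlkl, which pierces the membrane in necroptosis, read 6.41, 6.50 and 6.41 in wild type and 7.90, 7.88 and 8.06 in the knockout, 2.85-fold higher (1.51 ± 0.14, adjusted p = 0.000403). Casp12, a caspase of the endoplasmic reticulum, rose by 1.46 ± 0.25. Ripk3, which encodes the kinase that activates MLKL (0.21 ± 0.09, adjusted p = 0.229), and Casp8, which encodes the initiator caspase of death receptors (0.19 ± 0.10, adjusted p = 0.358), were not called. Among 28 p53 targets 8 were called higher and 1 lower, Slc19a2, a thiamine transporter (-0.46 ± 0.07). These shares are 28.6% and 3.57%, against 6.78% and 2.5% over all genes. The p53 inhibitor gene Mdm2 read 8.61, 8.73 and 8.76 in wild type and 9.00, 9.06 and 9.05 in the knockout and was not called (0.34 ± 0.10, adjusted p = 0.0825). The count of 8 was 5 without knockout replicate 2.

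Of 27 immediate early genes 6 were called higher (22.2%, against 6.78% over all genes). They were led by the zinc finger gene Klf6 (1.25 ± 0.11, limma adjusted p = 0.000394). Klf6 read 7.07, 6.72 and 6.86 in wild type and 8.02, 8.05 and 8.34 in the knockout, while Fos differed by 0.13 ± 0.15 (adjusted p = 0.687). The count of 6 was 2 without wild type replicate 3 and 3 without knockout replicate 2 or 3. Of 28 genes of the NRF2 antioxidant response 5 were called higher (17.9%, against 6.78% over all genes). They were the glutathione transferase gene Gstm3 (1.02 ± 0.17), the sulfiredoxin gene Srxn1 (0.81 ± 0.13), Nqo1, Pgd and Nfe2l2. The last encodes NRF2 itself (0.52 ± 0.07, adjusted p = 0.00191). The Nqo1 call (0.75 ± 0.15) was lost without wild type replicate 3 or knockout replicate 3 (adjusted p = 0.0566 and 0.0527). Nfe2l2 read 10.29, 10.18 and 10.26 in wild type and 10.70, 10.84 and 10.74 in the knockout. Of 30 measured genes of the unfolded protein and integrated stress responses none was called higher and 5 lower (16.7%, against 2.5% over all genes). Of the 30 differences, 25 were below 0, with a median of -0.22. The 5 were the chaperone genes Dnajb9 and Dnajc3, the sensor genes Ern1 and Atf6, and Atf4, the transcription factor of the integrated stress response. Dnajb9 read 11.36, 11.73 and 10.96 in wild type and 10.66, 10.43 and 10.43 in the knockout (-0.84 ± 0.16), a call lost without knockout replicate 2 or 3 (adjusted p = 0.0535 and 0.0576). The count of 5 was 9 without wild type replicate 3, 1 without knockout replicate 3 and 3 without wild type replicate 1 or 2, knockout replicate 1 or replicate 3 of the third group. It was 3 with the 6 arrays alone or with all probe sets tested, and 10 with median centring. The chaperone gene Hspa5 (BiP) was lower without a call (-0.53 ± 0.14, adjusted p = 0.0568) and Ddit3 (CHOP) differed by 0.02 ± 0.11.

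Of 31 metallothioneins and acute phase genes 6 were called higher (19.4%) and 3 lower (9.68%), against 6.78% and 2.5% over all genes. Lcn2, lipocalin 2, which withholds iron from bacteria, read 8.22, 8.23 and 7.30 in wild type and 9.37, 10.12 and 10.82 in the knockout (2.19 ± 0.37, adjusted p = 0.0064), and Mt1 rose by 1.41 ± 0.15. Saa3, the interleukin-6 family receptor gene Lifr (-0.91 ± 0.13) and Crp, C-reactive protein, were called lower. The hepatocyte serum amyloid gene Saa1 ranged from 4.97 to 5.98 in wild type and from 5.25 to 6.24 in the knockout and was not called (0.28 ± 0.29, adjusted p = 0.645). The count of 3 lower was 5 without replicate 2 of the third group and with median centring.

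**Figure D3:**
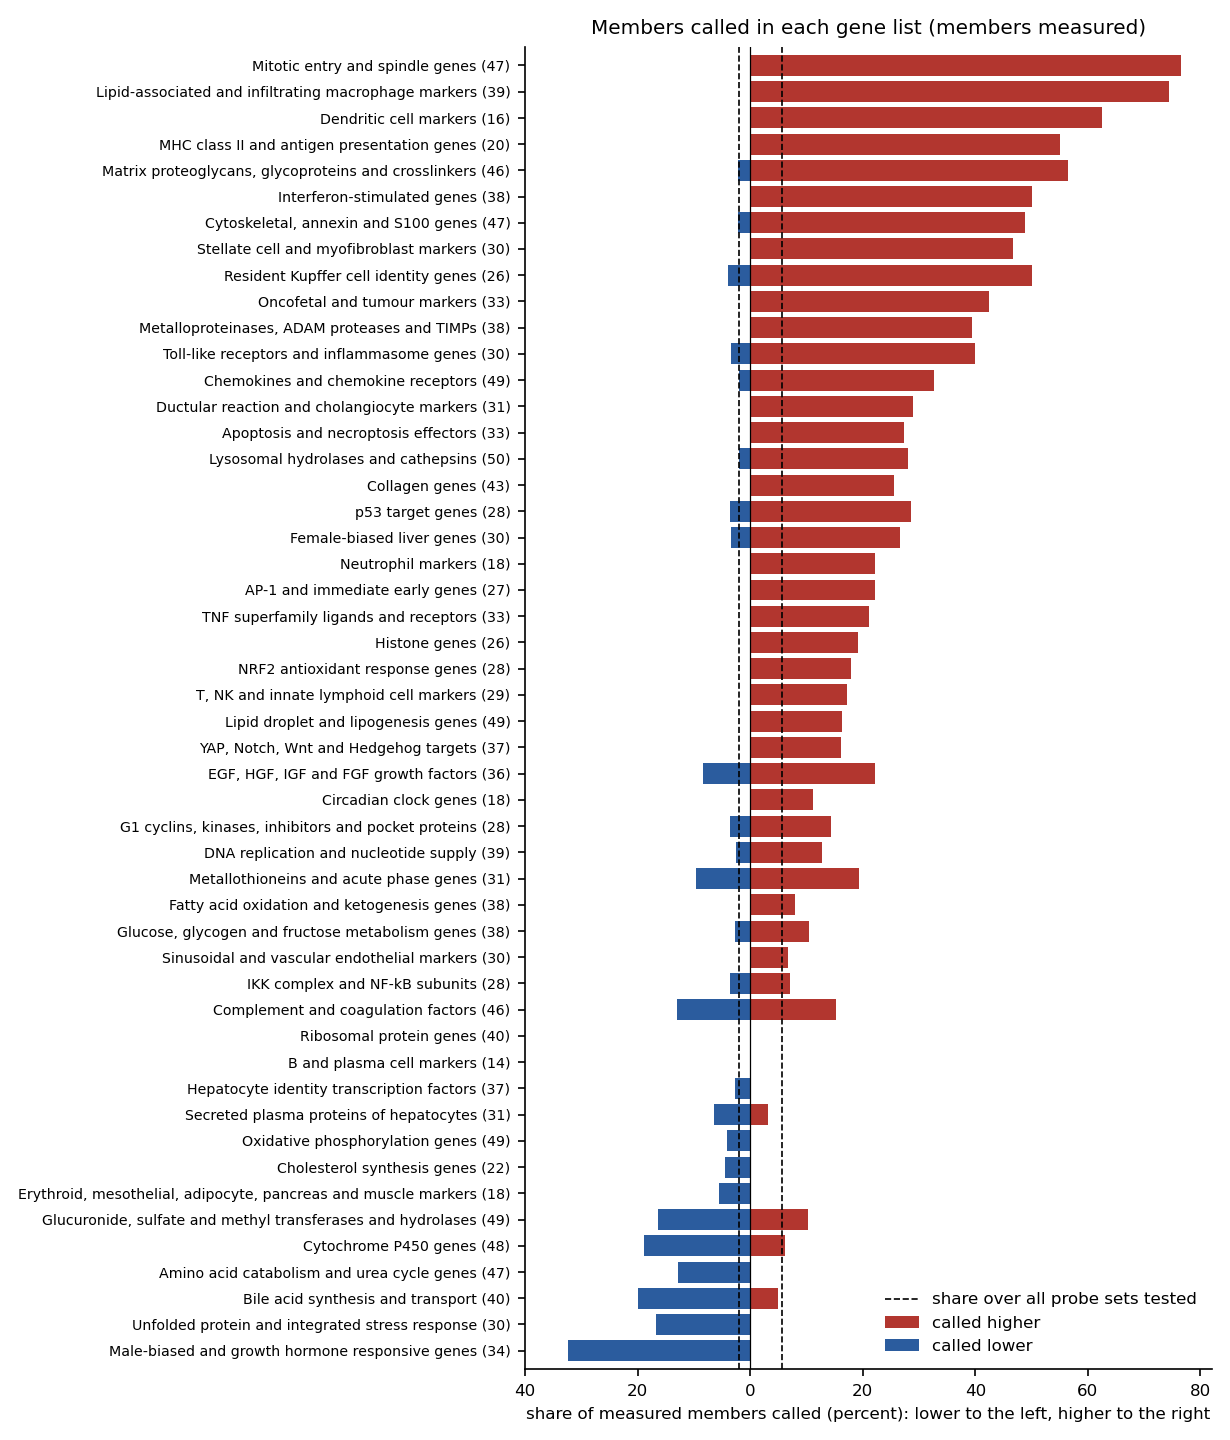
Bars give, for each of the 50 gene lists, the share of its measured members (number in parentheses) called higher (red, to the right) or lower (blue, to the left) in the NEMO knockout, in percent, and the dashed lines give the shares over all probe sets tested, 5.66% and 2.02%. Mitotic genes (36 of 47) and lipid-associated macrophage markers (29 of 39) have the longest bars to the right, and male-biased genes (11 of 34) the longest to the left.

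Most macrophage markers rose in the knockout. Of 39 measured markers of lipid-associated and infiltrating macrophages 29 were called higher (74.4%, against 6.78% over all genes) and none lower, with a median of 1.06. The mean over the list relative to wild type was 0.97, 1.10 and 1.17 in the knockout arrays and between -0.05 and 0.09 in wild type. Trem2, a lipid-sensing receptor of such macrophages, read 6.74, 7.03 and 6.68 in wild type and 7.92, 7.74 and 7.79 in the knockout (1.0 ± 0.10, adjusted p = 0.000467). Ccr2, the receptor that brings monocytes out of the blood, read 4.80, 5.03 and 4.81 against 5.83, 6.11 and 6.48 (1.26 ± 0.15). Its ligand gene Ccl2 was not called (0.33 ± 0.14, adjusted p = 0.21). Apoe, Mrc1, Fn1 and Fabp5 had differences of 0.01, 0.02, 0.05 and -0.77 with no call, and Spp1 is not named by a single-symbol probe set. In whole liver, fewer or more cells of a type cannot be told apart from less or more RNA per cell.

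Genes that mark resident Kupffer cells, the macrophages of the liver sinusoids, rose in part. Of 26 measured, 13 were called higher (50%) and 1 lower (3.85%), against 6.78% and 2.5% over all genes. Adgre1, which encodes the pan-macrophage antigen F4/80, read 8.37, 8.59 and 8.75 in wild type and 9.40, 9.64 and 9.63 in the knockout (0.99 ± 0.13, adjusted p = 0.00176). Other members were not called: Clec4f, a lectin of Kupffer cells, read 9.50, 9.64 and 9.58 against 9.71, 9.89 and 9.55 (0.15 ± 0.09, adjusted p = 0.424) and Timd4, a receptor for dying cells, 7.53, 7.78 and 7.70 against 7.62, 7.62 and 8.04 (0.09 ± 0.15, adjusted p = 0.797). Cd163, the receptor that clears haptoglobin-bound haemoglobin, fell from 7.16, 7.63 and 7.14 to 5.34, 5.90 and 5.16 (-1.85 ± 0.20, adjusted p = 0.000846). It is the only gene called lower among the 63 distinct genes of both macrophage lists. Marco, a scavenger receptor, had the largest increase of this list (1.03 ± 0.21), a call lost without wild type replicate 1 or 3 (adjusted p = 0.0673 and 0.0718) and with the 6 arrays alone (0.0539).

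**Figure D4:**
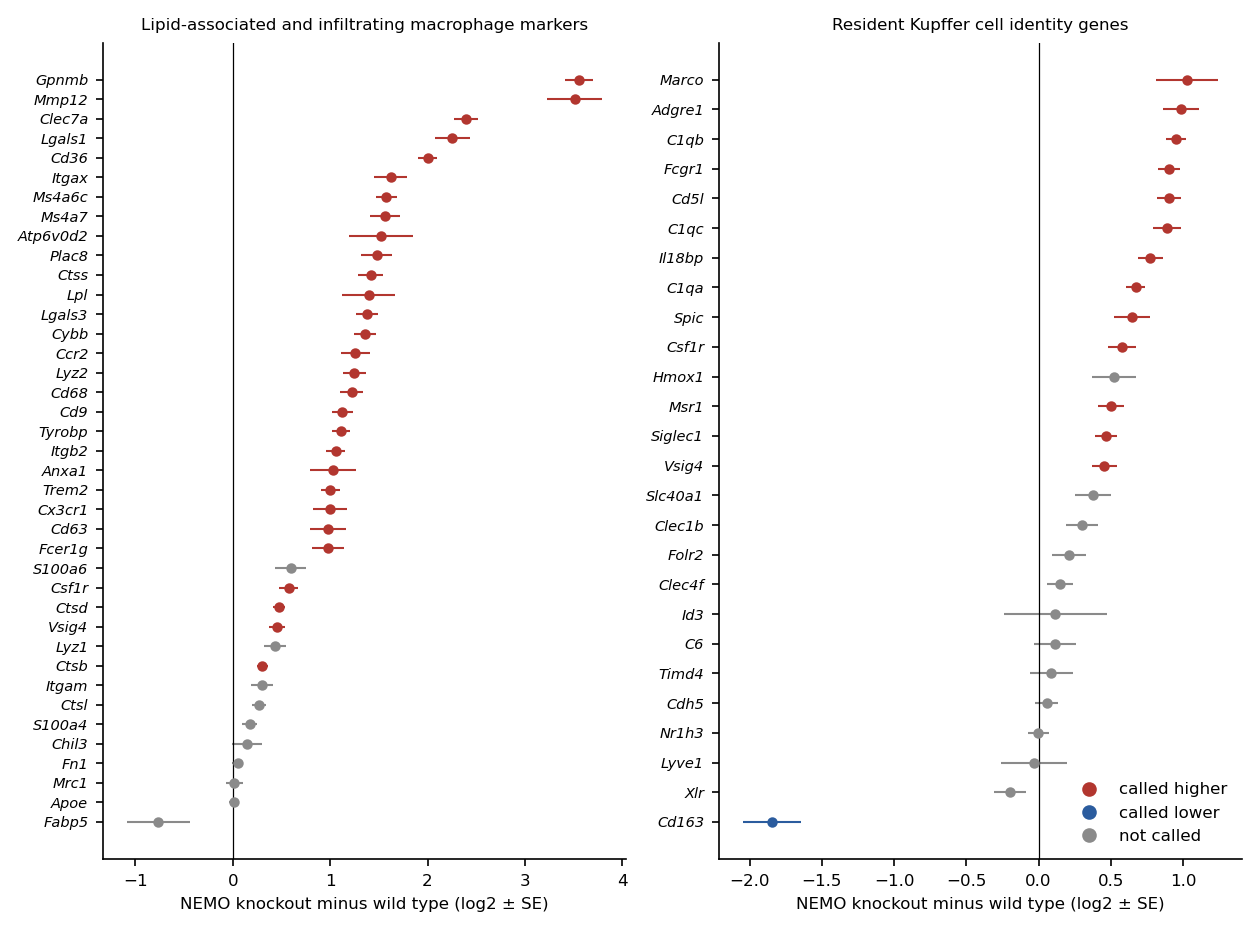
Points are the NEMO knockout minus wild type differences (log2, bars ± SE from the fit, 3 arrays per group) of lipid-associated and infiltrating macrophage markers (left) and of resident Kupffer cell genes (right), coloured by call. Gpnmb at 3.56 and Mmp12 at 3.51 lead the left panel, and Cd163 at -1.85 stands alone below 0 among the calls of the right panel.

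Of 20 measured genes of MHC class II and antigen processing 11 were called higher and none lower, with a median of 0.58. The share higher was 55%, against 6.78% over all genes. H2-Aa, a class II α chain, read 9.35, 9.01 and 9.43 in wild type and 10.69, 10.47 and 11.06 in the knockout (1.48 ± 0.18, adjusted p = 0.0013), and Cd74, the invariant chain that escorts class II molecules, rose by 1.25 ± 0.17. Knockout replicate 3 was the highest array for both, and for the mean of the list (0.83, against 0.58 and 0.49). Of 16 dendritic cell markers 10 were called higher (62.5%, against 6.78% over all genes), led by the transcription factor gene Irf8 (0.90 ± 0.10). The count of 10 was 5 without wild type replicate 3 and 6 without knockout replicate 3. Xcr1, the receptor of cross-presenting dendritic cells, rose by 0.43 ± 0.08, with adjusted p = 0.0122, and 0.0504 without wild type replicate 3. Of 38 interferon-stimulated genes 19 were called higher (50%, against 6.78% over all genes) and none lower, with a median of 0.47 and 37 differences above 0. Irf7, the transcription factor that amplifies interferon production, read 8.23, 8.13 and 8.49 in wild type and 8.97, 9.20 and 9.10 in the knockout (0.81 ± 0.10), and Gbp4, a guanylate-binding protein, rose by 1.25 ± 0.18. The count of 19 was 12 without knockout replicate 2 or 3. The chemokine gene Cxcl10, a classic interferon target, overlapped between the groups (0.41 ± 0.20, adjusted p = 0.293).

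Of 30 Toll-like receptor and inflammasome genes 12 were called higher (40%) and 1 lower (3.33%), against 6.78% and 2.5% over all genes. The 1 lower was the adaptor gene Tirap (-0.59 ± 0.10, limma adjusted p = 0.00832), a count that was 2 with quantile normalisation repeated or median centring. Cd180, a relative of Tlr4 on B cells and macrophages, read 7.57, 7.69 and 7.67 against 8.99, 9.02 and 9.33 (1.47 ± 0.12, adjusted p = 0.00025), and Tlr1 rose by 1.34 ± 0.12. Tlr4, the lipopolysaccharide receptor, was not called (0.49 ± 0.15, adjusted p = 0.0868), nor was the shared adaptor gene Myd88 (-0.01 ± 0.09). Of 49 chemokines and chemokine receptors 16 were called higher (32.7%) and 1, Cxcl13, lower (2.04%), against 6.78% and 2.5% over all genes. Cxcl14 had the largest rise, from 6.86, 7.05 and 7.24 to 8.57, 9.78 and 9.28 (2.16 ± 0.30, adjusted p = 0.0024). Ccl3, a macrophage chemokine, read 5.66, 5.64 and 5.67 in wild type, within 0.03 of each other, and 6.81, 7.35 and 7.87 in the knockout (1.68 ± 0.26). The neutrophil chemokine gene Cxcl1 was not called (-0.24 ± 0.19). The 16 were 10 without wild type replicate 3, and the 1 was 2 with median centring. The κB-like letters GGNNTTTCC were present in 9 of 42 chemokine list promoters (21.4%) and in 4.93% of all promoters. Among the called members with an entry, 1 of 15 promoters (6.67%) held them, at a start site of the receptor-like gene Ccrl2.

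Lymphocyte and neutrophil list means were highest in knockout replicate 3. Of 29 T and NK cell markers 5 were called higher (Ccl5, Cd3g, Nkg7, Ncr1 and Il7r), 17.2% against 6.78% over all genes. The mean of the list was 0.18, 0.22 and 0.49 in the knockout arrays. Ncr1, the NK cell receptor NKp46, read 5.07, 4.69 and 4.71 in wild type and 5.33, 5.70 and 5.63 in the knockout (0.73 ± 0.12, adjusted p = 0.00714), and Cd3e, a chain of the T cell receptor complex, differed by 0.36 ± 0.10 without a call (adjusted p = 0.0657). The count of 5 was 8 without knockout replicate 1, 2 without wild type replicate 2 and 3 without wild type replicate 3 or knockout replicate 2. Of 18 neutrophil markers 4 were called higher (Lcn2, Retnlg, Csf3r and Prtn3), 22.2% against 6.78% over all genes. The mean of the list was 0.23, 0.27 and 0.63, and S100a8, an abundant neutrophil protein gene, read 4.66, 4.71 and 5.67 in the knockout against 4.82, 4.76 and 4.77 (0.23 ± 0.23, adjusted p = 0.642). The 4 were 2 without any 1 wild type array, without replicate 3 of the third group and with all probe sets tested. None of 14 B cell markers was called by limma (1 had an unadjusted p under 0.05). Without knockout replicate 2, with an intensity trend in the fit and with median centring 1 was called lower. Cd79a, a chain of the B cell receptor, differed by 0.12 ± 0.16 without a call.

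Many matrix genes rose in the knockout. Of 46 measured proteoglycans, glycoproteins and crosslinking enzymes 26 were called higher and 1 lower, with a median of 0.59. These shares are 56.5% and 2.17%, against 6.78% and 2.5% over all genes. Lum, the collagen-binding proteoglycan lumican, read 6.99, 7.52 and 7.44 in wild type and 9.61, 9.72 and 10.13 in the knockout (2.5 ± 0.16, adjusted p = 0.000117). Thbs1, thrombospondin 1, an activator of TGF-β, rose by 1.77 ± 0.28, and Lox, the enzyme that crosslinks collagen, read 4.96, 5.44 and 5.16 against 6.31, 7.10 and 7.08 (1.64 ± 0.22). Ecm1 was the gene called lower (-0.58 ± 0.10, adjusted p = 0.00732), at 10.77, 11.10 and 11.09 in wild type and 10.47, 10.39 and 10.35 in the knockout. Of 43 collagen genes 11 were called higher (25.6%, against 6.78% over all genes) and none lower. The median over all 43 was -0.03, the same as over all genes. Col1a1 read 7.77, 7.65 and 7.57 against 9.20, 9.30 and 9.56 (1.69 ± 0.10, adjusted p = 0.000106), Col3a1 7.77, 7.38 and 7.39 against 8.73, 8.73 and 8.87 (1.27 ± 0.11), and Col6a3 rose by 1.69 ± 0.14. The 11 encode chains of collagens I, III, IV, V, VI, XIV and XV. Without knockout replicate 1, 2 collagen genes were called lower. Of 38 metalloproteinases, ADAM proteases and their inhibitors 15 were called higher (39.5%, against 6.78% over all genes) and none lower. They were led by Mmp12, the macrophage elastase, and Mmp13, a collagenase (2.13 ± 0.29). Without replicate 3 of the third group and with the 6 arrays alone 1 was called lower. Timp1, the inhibitor of metalloproteinases, read 5.25, 6.01 and 5.59 in wild type and 7.25, 7.49 and 7.43 in the knockout (1.77 ± 0.21, adjusted p = 0.00128).

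Of 30 markers of stellate cells, which store vitamin A and make matrix when activated, 14 were called higher and none lower. The share higher was 46.7%, against 6.78% over all genes, and the median difference was 0.56. Pdgfra read 7.03, 7.62 and 7.21 in wild type and 8.48, 8.83 and 9.20 in the knockout (1.55 ± 0.19), and Cygb, cytoglobin of stellate cells, 8.64, 8.77 and 8.78 against 10.11, 9.96 and 10.28 (1.38 ± 0.10, adjusted p = 0.000149). Acta2, the smooth muscle actin of contractile myofibroblasts, read 7.86, 7.70 and 7.96 in wild type and 8.25, 9.13 and 8.07 in the knockout and was not called (0.64 ± 0.25, adjusted p = 0.18). Lrat, which stores vitamin A in resting stellate cells, was not called either (0.32 ± 0.16, adjusted p = 0.308). Without knockout replicate 1, and with array weights, median centring or the replicate block, 1 was called lower. The mean of the list was 0.48, 0.58 and 0.63 in the knockout, beside means of 0.97, 1.10 and 1.17 of the macrophage list in the same arrays, and the part of either cell type in the matrix changes was not tested. Of 30 endothelial markers 2 were called higher, 6.67% against 6.78% over all genes, so the list was not set apart. They were Cd34 (1.65 ± 0.20), which stem cells and fibroblasts also carry, and Eng (0.29 ± 0.07). Their sinusoidal member Stab2 differed by -0.02 ± 0.08 and Pecam1 by 0.21 ± 0.11, without a call. The 2 were 1 without any 1 wild type or knockout array or replicate 3 of the third group, with the 6 arrays alone, with median centring, with all probe sets tested and with the replicate block.

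Of 31 ductular and cholangiocyte markers 9 were called higher (29%, against 6.78% over all genes) and none lower. Cd24a, a surface protein of progenitor and biliary cells, read 6.07, 5.92 and 5.97 in wild type and 7.14, 7.30 and 8.19 in the knockout (1.56 ± 0.28, adjusted p = 0.00933), and Bicc1, an RNA-binding protein of duct cells, rose by 1.29 ± 0.18. The duct keratin gene Krt19 (0.14 ± 0.11) and the duct transcription factor gene Sox9 (0.38 ± 0.17) were not called. The 9 were 5 without wild type replicate 3 or knockout replicate 3. Of 33 oncofetal and tumour markers 14 were called higher (42.4%, against 6.78% over all genes) and none lower, led by Ly6d and Sprr1a. Sprr1a, a cornified envelope protein, read 6.76, 6.41 and 6.31 in wild type and 9.85, 10.25 and 9.16 in the knockout (3.26 ± 0.53, limma adjusted p = 0.00544). Afp, α-fetoprotein, was not called (0.34 ± 0.13, adjusted p = 0.172). Of 47 cytoskeletal, annexin and S100 genes 23 were called higher and 1, the tubulin gene Tuba4a, lower (-0.55 ± 0.09). These shares are 48.9% and 2.13%, against 6.78% and 2.5% over all genes. S100a11, a calcium-binding partner of annexins, read 8.68, 8.34 and 8.87 in wild type and 10.33, 10.63 and 10.69 in the knockout (1.92 ± 0.15, adjusted p = 0.00025). Of 50 lysosomal genes 14 were called higher (28%) and 1 lower (2%), against 6.78% and 2.5% over all genes. The 1 lower was the acid glucosidase gene Gaa (-0.36 ± 0.06), with a count lower of 2 under median centring. Ctss, a cathepsin of antigen-presenting cells, rose by 1.42 ± 0.13, and the lysosomal membrane gene Lamp1 differed by 0.06 ± 0.06.

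**Figure D5:**
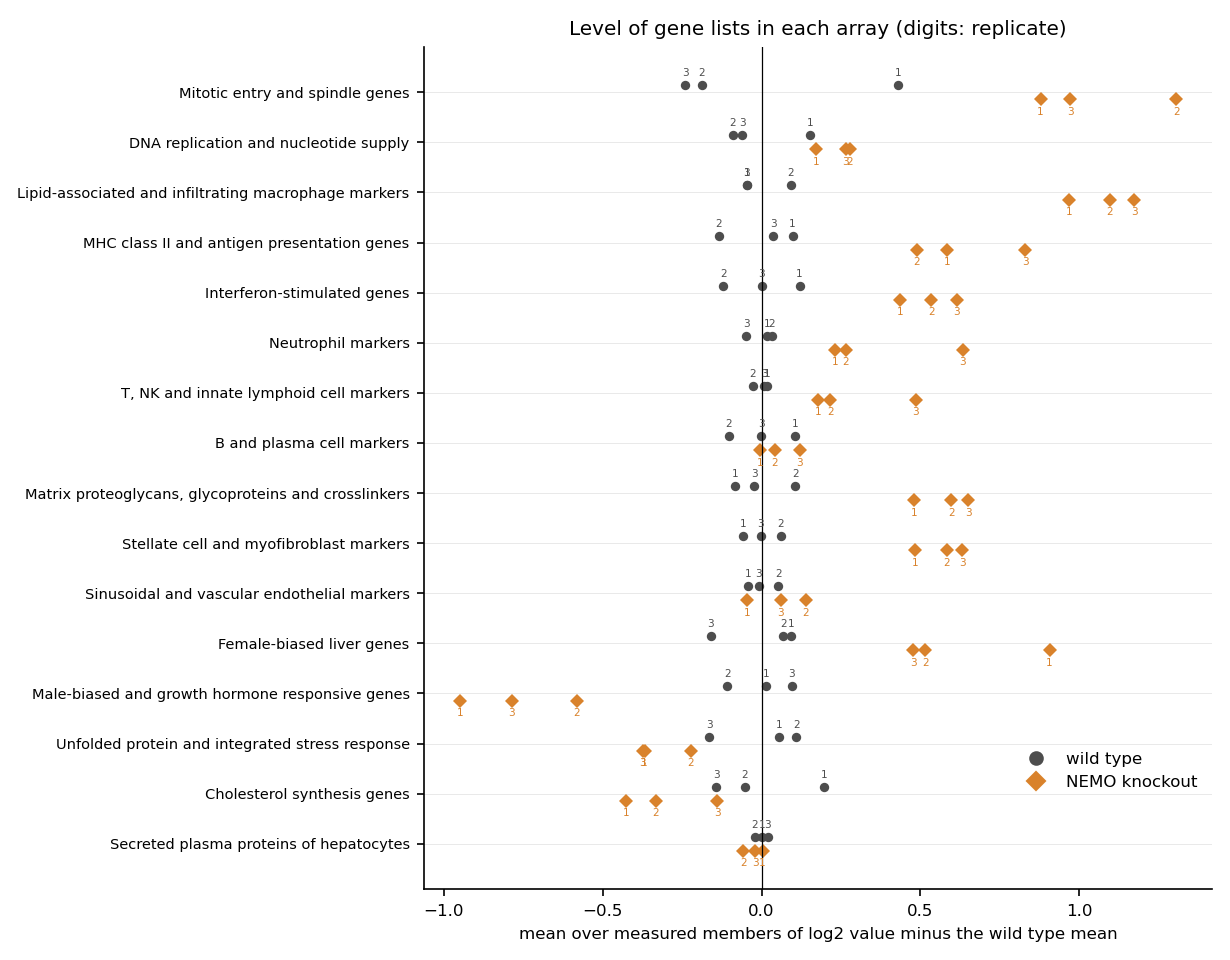
Each mark is the mean over the measured members of a gene list of the log2 value minus the wild type mean of that gene, for each wild type array (circles) and NEMO knockout array (diamonds), with the replicate number beside it. Mitotic genes stand at 0.43 in wild type replicate 1, neutrophil genes at 0.63 in knockout replicate 3 and female-biased genes at 0.91 in knockout replicate 1, each apart from the other arrays of its group.

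Transcripts of growth factors and developmental pathways changed gene by gene. Of 36 genes of the EGF, HGF, IGF, FGF and PDGF families 8 were called higher and 3 lower. These shares are 22.2% and 8.33%, against 6.78% and 2.5% over all genes. Hgf, which stellate cells make for hepatocytes, read 8.18, 8.48 and 8.48 in wild type and 9.21, 9.32 and 9.39 in the knockout (0.93 ± 0.09, adjusted p = 0.00062), and the receptor gene Fgfr1 rose by 0.92 ± 0.13. Fgf1, Igfals, which encodes the protein that holds IGF1 in the blood, and Vegfa were the genes called lower. Igf1 itself read 12.12, 12.05 and 12.16 against 12.02, 12.12 and 12.13 (-0.02 ± 0.06). The 8 were 5 without wild type replicate 1 or 3 or knockout replicate 3, with the 6 arrays alone, with median centring or with all probe sets tested, and the 3 were 1 without wild type replicate 1 or 3 or knockout replicate 1 or 3 and with all probe sets tested. Of 37 YAP, Notch, Wnt and Hedgehog targets 6 were called higher (16.2%, against 6.78% over all genes). Among them Axl, a receptor tyrosine kinase, rose by 1.18 ± 0.07 (limma adjusted p = 0.000112) and the Notch target Hey1 by 0.88 ± 0.07. The YAP targets Ccn1 (0.62 ± 0.24) and Ccn2 (0.26 ± 0.43) were not called. Without knockout replicate 1 or 2 a gene was also called lower. Of 26 measured histone genes 5 were called higher (H2ac15, H1f5, H1f2, H4c6 and H2az1), H2ac15 by 0.96 ± 0.16. This is 19.2%, against 6.78% over all genes. Histone genes are near-identical copies that can share signal. The 5 were 2 without wild type replicate 2 or 3 or knockout replicate 2 or 3, and 3 without replicate 1 of the third group, with the 6 arrays alone, with median centring, with the replicate block or with all probe sets tested.

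Alb, albumin, read 13.78, 13.69 and 13.79 in wild type and 13.79, 13.76 and 13.73 in the knockout (0.01 ± 0.06, adjusted p = 0.965), and Ttr, transthyretin, differed by -0.05 ± 0.05. Of 31 secreted plasma protein genes 1 was called higher (3.23%, against 6.78% over all genes). This was Apoa4 (1.68 ± 0.20, limma adjusted p = 0.0013), from 10.84, 11.52 and 10.62 to 12.63, 12.60 and 12.81. The 2 called lower (6.45% of the list, against 2.5% over all genes) were Lifr and Itih1, an inhibitor chain that binds hyaluronan. Their count was 1 without wild type replicate 1 or 3 or knockout replicate 3, and 4 with array weights, with median centring or with an intensity trend in the fit. Of 37 hepatocyte transcription factors none was called higher and 1 lower (2.7%, against 2.5% over all genes). This was Mlxipl, which encodes ChREBP, the carbohydrate-responsive activator of lipid synthesis, at 11.47, 11.48 and 11.57 in wild type and 10.71, 10.70 and 10.92 in the knockout (-0.73 ± 0.09, adjusted p = 0.00131). Hnf4a (-0.05 ± 0.09) and Cebpa (-0.07 ± 0.14) were not called. The count of 1 was 3 without wild type replicate 1 and 2 without wild type replicate 2, without knockout replicate 2 or with median centring, and without wild type replicate 1 a gene was also called higher.

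Some genes with male-biased or growth hormone-dependent expression in liver fell, and some female-biased genes rose, in these livers of males. Of 34 measured male-biased genes 11 were called lower (32.4%, against 2.5% over all genes) and none higher, with a median of -0.42. The mean of the list relative to wild type was -0.95, -0.58 and -0.79 in the knockout arrays. Elovl3, an elongase of very long fatty acids, read 12.34, 12.86 and 12.57 in wild type and 9.38, 10.94 and 10.28 in the knockout, and Cyp7b1, the oxysterol hydroxylase, 11.55, 11.76 and 12.01 against 9.01, 10.52 and 9.83 (-1.98 ± 0.33, adjusted p = 0.00584). Knockout replicate 1 was the lowest array for both, as it was for Hsd3b5, and replicate 2 the highest. Slco1a1, a male-biased transporter of organic anions, read 11.74, 11.45 and 11.87 against 10.21, 10.40 and 10.40 (-1.35 ± 0.17). The 11 were 7 without knockout replicate 3, and without knockout replicate 1 a gene was also called higher. Of 30 measured female-biased genes 8 were called higher and 1, Lifr, lower, with a median of 0.49. These shares are 26.7% and 3.33%, against 6.78% and 2.5% over all genes. Besides Cyp2a22, Abcd2, a peroxisomal transporter of very long-chain acyl-CoA, read 6.92, 6.77 and 6.81 in wild type and 9.03, 8.86 and 8.79 in the knockout (2.06 ± 0.23). Cyp2b9, a cytochrome P450 of females, spanned 9.74, 8.06 and 5.67 among the wild type arrays and was not called (1.86 ± 0.87, adjusted p = 0.271). The 8 were 5 without wild type replicate 1 or knockout replicate 1 and 4 without wild type replicate 3, and the 1 was 2 without wild type replicate 2. The list of female-biased genes also holds genes of macrophages and ducts, such as Cd36, Atp6v0d2 and Prom1, which are among its 8 called higher.

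Of 48 cytochrome P450 genes 3 were called higher (6.25%) and 9 lower (18.8%), against 6.78% and 2.5% over all genes. Cyp2c37, an arachidonic acid epoxygenase, read 11.89, 11.73 and 11.80 in wild type and 10.67, 9.82 and 9.86 in the knockout (-1.69 ± 0.22, adjusted p = 0.00199). Cyp2c genes are close copies of each other, and 5 of the 9 belong to this family. The other 4 were Cyp4f13, Cyp4f14, Cyp2j5 and Cyp2r1. The genes for the main hepatic forms Cyp3a11 (0.12 ± 0.12), Cyp2e1 (-0.23 ± 0.07) and Cyp1a2 (-0.27 ± 0.09) were not called. Cyp4f16 (1.28 ± 0.14), Cyp4f18 (0.98 ± 0.08) and Cyp1b1 were called higher. The 9 were 5 without wild type replicate 1, 4 without knockout replicate 2 and 15 with median centring. A list of 49 transferases and hydrolases also holds aldehyde dehydrogenases and flavin monooxygenases. In it 5 genes were called higher (10.2%) and 8 lower (16.3%), against 6.78% and 2.5% over all genes. Those higher were the aldehyde dehydrogenase genes Aldh1b1 (mitochondrial, 1.33 ± 0.13) and Aldh3a2, the flavin monooxygenase genes Fmo4 (1.08 ± 0.17) and Fmo2, and the carboxylesterase gene Ces2e. Of the 8 lower, 4 were carboxylesterases. The 5 were 3 without wild type replicate 3 or knockout replicate 3, 9 with an intensity trend or cyclic loess and 8 without the dimmest 25% of probe sets.

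Of 40 genes of bile acid synthesis and transport 2 were called higher (5%) and 8 lower (20%), with a median of -0.19. Over all genes these shares were 6.78% and 2.5%. Abcb4, the phosphatidylcholine exporter of the canalicular membrane, read 10.76, 10.99 and 10.94 in wild type and 11.57, 11.76 and 11.38 in the knockout (0.67 ± 0.11, adjusted p = 0.00532). Abcb1a, a multidrug exporter, was the other gene called higher, and the 2 were 1 without knockout replicate 1 or 3. Abcb11, the bile salt export pump, fell by 0.29 on the log2 scale (SE 0.07), at 12.01, 12.06 and 12.08 in wild type and 11.80, 11.72 and 11.76 in the knockout, a call lost without any 1 wild type array or knockout replicate 2 or 3 (adjusted p from 0.0625 to 0.0958). Cyp7a1, the rate-limiting enzyme of bile acid synthesis, ranged from 10.74 to 11.78 in wild type and from 11.75 to 12.45 in the knockout and was not called (0.91 ± 0.28, adjusted p = 0.0875), and neither was the sodium-dependent uptake carrier gene Slc10a1 (-0.22 ± 0.07, adjusted p = 0.0968). The 8 were 4 without wild type replicate 1 or 2, 3 without wild type replicate 3 or knockout replicate 2 or 3, 5 with the 6 arrays alone or all probe sets tested and 4 with cyclic loess.

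Some lipid storage genes rose, and the main lipogenic enzymes were not called. Of 49 lipid droplet and lipogenesis genes 8 were called higher (16.3%, against 6.78% over all genes) and none lower. Scd2, a stearoyl-CoA desaturase of tissues other than adult liver, read 7.59, 7.36 and 7.40 in wild type and 9.41, 9.25 and 10.42 in the knockout (2.24 ± 0.38, adjusted p = 0.00679), and Cd36, a fatty acid receptor, 8.08, 8.33 and 8.16 against 10.25, 10 and 10.32 (2.0 ± 0.10, adjusted p = 6.46e-05). The hepatic desaturase gene Scd1 (0.09 ± 0.07) and the fatty acid synthase gene Fasn (0.03 ± 0.21) were not called. The 8 were 5 without knockout replicate 3, and 1 was called lower without knockout replicate 1, with array weights and with median centring. Of 38 genes of fatty acid oxidation 3 were called higher (7.89%, against 6.78% over all genes). They were Acot2, a mitochondrial acyl-CoA thioesterase, by 1.12 ± 0.15, Vnn1 and Cpt1a. Their count was 1 without any 1 of wild type replicates 1 and 3 and knockout replicates 1 and 2, with all probe sets tested and with the replicate block. In 5 settings 1 was called lower: without knockout replicate 2, with an intensity trend, median centring or the replicate block, and without the dimmest 25% of probe sets. Of 22 cholesterol synthesis genes 1 was called lower (4.55%, against 2.5% over all genes), the sterol reductase gene Tm7sf2 (-0.56 ± 0.08, adjusted p = 0.00281). Of the 22 differences, 21 were below 0, with a median of -0.30. The mean of this list overlapped between the groups, at 0.20, -0.05 and -0.14 in wild type and -0.43, -0.33 and -0.14 in the knockout. The 1 was 2 without wild type replicate 3.

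Of 38 genes of glucose metabolism 4 were called higher (10.5%) and 1 lower (2.63%), against 6.78% and 2.5% over all genes. Those higher were the glycogen primer gene Gyg (0.69 ± 0.11), the hexokinase genes Hk2 (0.49 ± 0.09) and Hk3, and Tkfc. The 1 lower was Galt of galactose breakdown. G6pc, glucose 6-phosphatase, spanned 12.06 to 13.29 in wild type and 12.41 to 12.80 in the knockout (-0.06 ± 0.27) and Pck1 differed by 0.08 ± 0.16, neither with a call. The 4 were 7 without the dimmest 25% of probe sets. The 1 was 0 without wild type replicate 1 or 2 or knockout replicate 2 or 3, 3 and 2 without replicates 2 and 3 of the third group, and 2 with the 6 arrays alone or median centring. Of 47 genes of amino acid breakdown and the urea cycle none was called higher and 6 lower (12.8%, against 2.5% over all genes). Among them was Afmid, a formamidase of tryptophan breakdown (-0.65 ± 0.12, limma adjusted p = 0.0108). It read 11.02, 11.20 and 10.97 in wild type and 10.54, 10.31 and 10.38 in the knockout. The urea cycle genes Cps1 (0.07 ± 0.06) and Arg1 (-0.15 ± 0.09) were not called. The 6 were 2 without wild type replicate 1 or 3 or knockout replicate 3, and 3 without knockout replicate 2 or with the 6 arrays alone, and without wild type replicate 2 there were 2 genes called higher. Of 46 complement and coagulation genes 7 were called higher (15.2%) and 6 lower (13%), against 6.78% and 2.5% over all genes. Those higher include genes of myeloid and stromal cells, such as the receptor gene C3ar1 (1.49 ± 0.13) and the plasminogen activator gene Plat (1.57 ± 0.15), and those lower include the hepatocyte gene F7 (-0.59 ± 0.10, adjusted p = 0.00591). F2, prothrombin, was not called (-0.12 ± 0.07). The 6 were 2 without wild type replicate 1 or 3 or knockout replicate 3 and with the 6 arrays alone, and 3 with the replicate block.

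Several clock genes varied between arrays of a group. Of 18 measured 2 were called higher (11.1%, against 6.78% over all genes). They were the kinase gene Wee1 (1.17 ± 0.11, adjusted p = 0.000451), which also acts in mitosis, and Bhlhe40 (0.80 ± 0.11). Arntl, which encodes the core activator BMAL1, read 8.27, 8.78 and 8.00 in wild type and 6.46, 7.83 and 7.22 in the knockout, and its target Dbp 8.98, 7.13 and 8.27 against 10.35, 9.16 and 10.05. Both sets of values are apart without overlap and moved in opposite directions, and neither was called (-1.18 ± 0.45, adjusted p = 0.172, and 1.73 ± 0.67, adjusted p = 0.179). The time of day at which livers were taken is not given in the sources used here, and its part in these values was not tested. The 2 were 5 without knockout replicate 2 or replicate 2 of the third group, and without the latter a gene was also called lower.

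Of 40 ribosomal protein genes none was called by limma (6 had an unadjusted p under 0.05), with a median of -0.10, although 34 of the 40 differences were below 0. Without wild type replicate 1 there was 1 called lower, and with quantile normalisation repeated 2. Of 49 oxidative phosphorylation genes 2 were called lower (4.08%, against 2.5% over all genes), Ndufb5 (-0.35 ± 0.07, adjusted p = 0.0122) and Ndufb9. The 2 were 1 without any 1 array other than wild type replicate 1, and also with the 6 arrays alone, cyclic loess, the replicate block or all probe sets tested, and 5 with median centring. Among 18 markers of red cells, mesothelium, fat, pancreas and muscle 1 was called lower (5.56%, against 2.5% over all genes). It was Alas2, the haem synthesis enzyme of red cell precursors, from 10.69, 10.21 and 10.57 to 9.16, 9.82 and 9.32 (-1.06 ± 0.19, adjusted p = 0.00898). The 1 was 3 without knockout replicate 1 and 2 with quantile normalisation repeated or median centring.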

How the data were processed

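Total RNA of whole liver was hybridised to single-channel Affymetrix mouse gene arrays, 1 per sample. The authors deposited log2 values per probe set made with RMA, per the submitters' processing notes, which name no version; the log base was taken from the range of the values. Because RMA brings all arrays to 1 common distribution, it hides a change shared by all RNA, and its probe summary sometimes returns identical values for several arrays. Here 6617 control-like probe sets (18.6%) without gene annotation were left out. The 28939 others were tested, 5529 of them (19.1%) without a gene symbol. The lmFit and eBayes functions of limma 3.58.1 in R 4.3.3 used all 9 arrays and 1 mean per group. Calls were made at a Benjamini-Hochberg adjusted p under 0.05. The number of arrays, 3 per group, limits the precision. Names came from the platform annotation and RefSeq, which matched 21698 of the 21789 probe sets with 1 symbol; a gene with several was read from the one with the highest mean. On simulated data the fit recovered 36 of 67 probe sets changed by 0.5 on the log2 scale, 57 of 67 by 1 and 65 of 66 by 2, with 17 false calls. The simulated noise was independent between probe sets, without effects shared by an array. It therefore does not give the share of false calls in the real data.

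The genes described are Ikbkg, the 20 largest increases and decreases among called genes whose groups do not overlap (without predicted genes, small RNAs and olfactory or vomeronasal receptors), and, for each of 50 lists, its fixed anchor genes and up to 2 called members with the largest change in each direction. Others (such as neighbours of Ikbkg, further promoters shown and members of short calls) were named after their values were seen. Members and lists were chosen with earlier results of these data known. The alternatives were 9 fits that leave out an array and 11 other settings. Wild type and knockout arrays of the same replicate number were not paired: their deviations from the group means correlated at 0.18, 0.0057 and 0.021 for numbers 1, 2 and 3. Pairs of unlike number correlated between -0.11 and 0.097, so the pair of number 1 had the highest value.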

Additional observations from a re-analysis of the deposited data

How the results depend on the processing

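Of the 218 genes described by rule, 158 were called, and none of these changed sign in any alternative run. The call was lost without at least 1 array for 38 of them and in another alternative for 25. Of the 60 not called, 13 changed sign and 12 were called in some alternative. The probe sets called ranged from 1382 to 2335 when 1 array was left out, those higher from 1081 to 1644 and those lower from 301 to 691, lowest without knockout replicate 3 each time. Ikbkg ranged from -0.59 to -0.46. Calls lower numbered 885 with quantile normalisation repeated and 1169 with median centring, which moved the share of calls higher to 52.7%. At an adjusted p under 0.01 there were 1042 calls, 877 higher and 165 lower. With the replicate number as a block there were 2318 calls, 1667 higher and 651 lower. The same numbers were not taken to pair the samples, since no source says that they mark a shared batch. Deviations of same-numbered arrays correlated at 0.18 for number 1, the highest of all pairs, and near 0 for numbers 2 and 3. Values that turned sign were all of genes not called, and reached 0.25 (G6pc without wild type replicate 2) and -0.21 (Fasn without wild type replicate 3). With array weights they were -0.0058 for Ddit3, 0.033 for Stab2, 1.4e-05 for G6pc, -0.0082 for Alb and 0.055 for Myd88. Ddit3 was -0.039 with quantile normalisation repeated. With median centring the values were -0.046 for Ddit3, -0.036 for Fasn, -0.055 for Alb and -0.050 for Ikbkb, and with cyclic loess 0.012 for Igf1, 0.012 for Stab2 and 0.019 for Myd88. Leaving out 1 array moved Alb between -0.026 and 0.024, Ccn2 between -0.057 and 0.62, Cd79a between -0.00017 and 0.25, Cxcl1 between -0.37 and 0.0070, Ddit3 between -0.046 and 0.069, Fasn between -0.21 and 0.23, G6pc between -0.37 and 0.25, Igf1 between -0.052 and 0.013, Ikbkb between -0.0091 and 0.026, Myd88 between -0.086 and 0.084, Pck1 between -0.013 and 0.21, S100a8 between -0.097 and 0.41 and Stab2 between -0.095 and 0.037. The cause of these changes was not tested. Of the 50 lists, the count called higher moved over 1.5 times without at least 1 array in 25 and the count called lower in 27, and in another alternative in 10 and 24.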

Other observations

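The genes with the widest ranges among the knockout arrays included several that were not called. Ctse, a cathepsin of the stomach and of immune cells, read 6.0, 6.12 and 9.69 in the knockout and between 5.71 and 5.95 in wild type, without a call. The neutrophil granule gene Ngp (5.64, 5.46 and 7.58) and the immunoglobulin A heavy chain gene Igha (6.13, 6.23 and 8.13) were also highest in knockout replicate 3. Ciart, a repressor of the clock, read 8.22, 5.75 and 7.83 in the knockout, and its lowest value lay in replicate 2. Cyp26a1, which breaks down retinoic acid, read 10.28, 8.46 and 7.87 in wild type and 6.47, 5.47 and 7.73 in the knockout, without overlap and without a call (limma adjusted p = 0.0747). These genes were chosen for their spread among the knockout arrays, so their ranges are a description.

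The 3 knockout arrays held different shares of the largest distances. Of the 1352 genes called higher, the largest distance from the wild type mean was found in replicate 3 for 779 (57.6%), in replicate 2 for 460 (34.0%) and in replicate 1 for 113 (8.36%). Of the 498 genes called lower it was found in replicate 1 for 256 (51.4%).

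Of 296 microRNA genes with a probe set of their own, 2 were called higher and none lower by limma. This is 0.676%, against 9.28% called over all genes, so calls were rarer in this class than over all genes. The 2 were Mir145a, of smooth muscle and mesenchymal cells (0.73 ± 0.11, limma adjusted p = 0.00465), and Mir181b-2 (0.35 ± 0.08, adjusted p = 0.0289). The probe sets measure RNA from the locus, and mature microRNA was not measured separately.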
